A study of Mus musculus with 12 samples.

Results

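The genes of MHC class I antigen presentation were followed in sorted mouse alveolar type II (AT2) cells, epithelial cells that line the alveolus and make surfactant. The set, chosen with earlier results of these data known, holds 10 genes matched by name, out of 21878 genes listed. They are the classical heavy chains H2-K1 and H2-D1, their light chain B2m, the peptide transporter subunits Tap1 and Tap2, the loading chaperone Tapbp, the immunoproteasome subunits Psmb8, Psmb9 and Psmb10, and Nlrc5, which activates class I transcription. All 10 were found by name, and 9 passed the filter on low values. Nlrc5 did not.

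Class I molecules display peptides of cytosolic proteins to CD8+ T cells. The proteasome cuts the proteins, the Tap1/Tap2 transporter carries the peptides into the endoplasmic reticulum, and tapasin, the product of Tapbp, holds empty heavy chains beside the transporter until a peptide binds. In cells exposed to interferons, Psmb8, Psmb9 and Psmb10 replace the constitutive catalytic subunits Psmb5, Psmb6 and Psmb7. Autophagy, which needs Atg5, is another route by which cells break down their own proteins and organelles.

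Cells came from C57BL/6 mice at 8 to 12 weeks of age. Atg5 f/f mice, which the sample labels call wild type, received PBS (AT2-PBS) or bleomycin (BLM, an antitumor drug used to injure the lung) at 2 U/kg into the trachea (AT2-BLM). Mice that carry Nkx2.1Cre besides the same floxed alleles received PBS (Atg5-/- AT2-PBS) or BLM (Atg5-/- AT2-BLM). Nkx2.1Cre is expressed in the whole lung epithelium from development on, so the deletion was neither acute nor limited to AT2 cells. Cells were taken at day 14, though the study's text names no day for Atg5-/- AT2-PBS. The gate took EpCAM+ cells that were negative for CD24, Sca-1, CD31, CD34 and CD45, and each group holds 3 samples. The labels do not tie samples to separate animals, so p-values measure the spread between these samples, which may be technical.

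7 of the 10 genes lie on chromosome 17, in and around the MHC. In mm9 (NCBIM37, GENCODE vM1) these are Tapbp at chr17:34052844-34066235, H2-K1 at chr17:34132962-34137278, Psmb9 at chr17:34318932-34324697, Tap1 at chr17:34324498-34334170, Psmb8 at chr17:34334666-34338399, Tap2 at chr17:34340472-34353266 and H2-D1 at chr17:35399675-35404444. Psmb9, Tap1, Psmb8 and Tap2 fill 34335 bases. Tap1 and Psmb9 run head to head on opposite strands. Their gene models overlap by 212 bases, counted to the end of another Psmb9 model of the annotation, at base 34324709. B2m lies at chr2:121973422-121978819, Nlrc5 at chr8:96996663-97051172 (a long noncoding model in that annotation) and Psmb10 at chr8:108459628-108462292. Of the 50-base windows of H2-K1 transcripts 7.29% also occur in other genes, and of those of H2-D1 12.8%, so the values of these heavy chains are uncertain to the extent that such reads were shared out among relatives. The 5 promoters below are those of the light chain and both heavy chains, of Psmb8, which holds the activated site named below, and of the Tap1/Psmb9 pair. Each gives 250 bases before and 50 after the start from RefSeq (GRCm38.p6), 5′ to 3′ on the gene's strand, and capitals mark matches to the core of the interferon-stimulated response element (GAAA, any 2 bases, GAAA), the interferon-gamma activated site TTCNNNGAA, and the NF-kappa-B motif.
B2m, chr2:122147437-122147736: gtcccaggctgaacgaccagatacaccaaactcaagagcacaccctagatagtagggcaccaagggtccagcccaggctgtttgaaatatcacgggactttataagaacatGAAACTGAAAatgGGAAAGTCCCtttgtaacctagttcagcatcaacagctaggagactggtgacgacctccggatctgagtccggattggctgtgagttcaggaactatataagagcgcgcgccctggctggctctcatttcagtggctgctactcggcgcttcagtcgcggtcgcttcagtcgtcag
H2-K1, chr17:34000298-34000597, minus strand: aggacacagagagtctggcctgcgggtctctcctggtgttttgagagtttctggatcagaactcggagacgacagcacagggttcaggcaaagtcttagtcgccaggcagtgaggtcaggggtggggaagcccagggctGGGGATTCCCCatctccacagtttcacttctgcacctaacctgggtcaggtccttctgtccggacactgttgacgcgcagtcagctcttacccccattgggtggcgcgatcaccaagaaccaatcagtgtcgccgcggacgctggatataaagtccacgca
H2-D1, chr17:35262844-35263143: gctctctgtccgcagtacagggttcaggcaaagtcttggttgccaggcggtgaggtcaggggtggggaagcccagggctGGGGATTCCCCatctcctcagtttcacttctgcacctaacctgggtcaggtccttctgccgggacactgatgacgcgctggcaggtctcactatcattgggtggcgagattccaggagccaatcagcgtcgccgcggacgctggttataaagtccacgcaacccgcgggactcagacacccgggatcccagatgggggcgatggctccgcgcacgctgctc
Psmb8, chr17:34197945-34198244: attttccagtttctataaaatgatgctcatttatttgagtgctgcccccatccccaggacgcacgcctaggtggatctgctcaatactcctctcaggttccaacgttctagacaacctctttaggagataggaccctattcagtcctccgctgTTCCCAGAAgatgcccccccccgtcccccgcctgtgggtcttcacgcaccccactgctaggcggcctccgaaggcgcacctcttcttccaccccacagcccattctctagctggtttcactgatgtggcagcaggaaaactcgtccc
Tap1, chr17:34187306-34187605, which also covers the start of Psmb9: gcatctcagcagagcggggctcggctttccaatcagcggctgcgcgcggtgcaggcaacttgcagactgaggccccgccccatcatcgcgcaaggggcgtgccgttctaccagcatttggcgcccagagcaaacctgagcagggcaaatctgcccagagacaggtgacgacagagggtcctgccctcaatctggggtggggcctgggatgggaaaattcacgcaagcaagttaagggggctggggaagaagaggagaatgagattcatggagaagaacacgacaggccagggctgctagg

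8 of the 10 genes had a promoter entry, and Tap2 and Nlrc5 had none. The response element core, searched on both strands, occurs in 1 of the 8, B2m, from base -139, against 3.44% of 32851 mouse promoters of the same length. The NF-kappa-B motif occurs in 3 of the 8, in B2m and in H2-K1 and H2-D1, where a pair of matches overlap by all but 1 base, against 4.51% of promoters. The activated site occurs in Psmb8, from base -97, against 8.30%. The CCAAT box (37.4% of promoters) is in 6 of the 8 and TGACG, the core of a cyclic AMP response element (20.8%), in 5. The promoters of Tap1 and Psmb9 overlap, and their matches to these motifs are the same bases. Each such site is thus counted for both genes, and the 8 promoters are not separate. The match to the response element and that to the NF-kappa-B motif in B2m do not overlap. These are exact matches of letters and no measure of binding, and elements that depart from these letters were not counted.

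FPKM scale the fragments of a gene to its transcript length and to the total mapped in the sample. They summed to between 390141 and 549169 per sample, and the number of fragments is unknown. The cells carried AT2 transcripts in each group, with Sftpb, a surfactant protein gene, at a mean of 5313 FPKM or more, whereas Sftpc, the defining AT2 surfactant gene, was listed at 0 in 11 of 12 libraries, which may be a failed estimate. Atg5 itself was listed at 6.01 to 12.5 FPKM in Atg5 f/f libraries and 6.72 to 10.1 FPKM in Atg5-/- libraries, so FPKM of the whole gene do not show the deletion. The summed FPKM of 10 leukocyte markers ran from 73.6 to 137 in AT2-PBS, 116 to 223 in AT2-BLM, 886 to 1179 in Atg5-/- AT2-PBS and 140 to 331 in Atg5-/- AT2-BLM, despite the CD45- gate. Ptprc, which encodes CD45, averaged 0.232, 0.833, 8.004 and 1.73 FPKM in the same order. Lcp1, 1 of the 10 markers, averaged 65.7, 66.0, 70.4 and 64.6 FPKM. At 60.4 to 74.3 FPKM in AT2-PBS it made up most of the sum there, so the sums understate the differences of the other markers. The methods give male mice, but the summed FPKM of the Y-linked genes Ddx3y, Eif2s3y, Kdm5d and Uty was between 14.2 and 20.9 in 5 libraries and at most 0.733 in 7. The low libraries were replicate 1 of AT2-PBS, replicates 1 and 2 of AT2-BLM, all 3 of Atg5-/- AT2-PBS and replicate 1 of Atg5-/- AT2-BLM. Atg5-/- AT2-PBS therefore holds no library high in Y-linked RNA, and results are given with and without a term for it.

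B2m, the invariant light chain that every classical class I molecule needs, had 1074, 400 and 392 FPKM in replicates 1 to 3 of AT2-PBS. It reached 4010, 2581 and 1168 FPKM in AT2-BLM, 3219, 2457 and 1161 FPKM in Atg5-/- AT2-PBS, and 3446, 1670 and 1549 FPKM in Atg5-/- AT2-BLM. All 9 libraries of the other groups exceeded every AT2-PBS library, and those groups overlapped with one another. H2-D1, an H-2D heavy chain, had 1448, 1043 and 936 FPKM in AT2-PBS but 3268, 2615 and 2042 FPKM in AT2-BLM. Its Atg5-/- AT2-PBS values, 2333, 1852 and 1074 FPKM, overlapped with those of AT2-PBS, and its Atg5-/- AT2-BLM values were 3170, 1850 and 1952 FPKM. H2-K1, an H-2K heavy chain, had 388, 233 and 236 FPKM in AT2-PBS, 1119, 816 and 501 FPKM in AT2-BLM, 617, 583 and 283 FPKM in Atg5-/- AT2-PBS and 953, 637 and 582 FPKM in Atg5-/- AT2-BLM. Both heavy chains were lowest on average in AT2-PBS and highest in AT2-BLM, and no neighbouring groups in that order were apart.

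Tap1, a subunit of the peptide transporter, had 12.9, 8.31 and 9.84 FPKM in AT2-PBS, 35.3, 31.1 and 20.8 FPKM in AT2-BLM, 29.1, 40.4 and 14.5 FPKM in Atg5-/- AT2-PBS and 33.2, 21.2 and 19.2 FPKM in Atg5-/- AT2-BLM. Tap2, the other subunit, had 34.7, 18.8 and 23.7 FPKM in AT2-PBS, 56.5, 47.6 and 38.4 FPKM in AT2-BLM, 55.0, 55.1 and 25.5 FPKM in Atg5-/- AT2-PBS and 60.3, 39.4 and 40.6 FPKM in Atg5-/- AT2-BLM. For Tap1 the AT2-PBS range lay below all others, whereas for Tap2 it overlapped with that of Atg5-/- AT2-PBS. In AT2-PBS replicates 1 to 3 Tapbp stood at 167, 151 and 152 FPKM, in AT2-BLM at 291, 256 and 301, in Atg5-/- AT2-PBS at 250, 238 and 169, and in Atg5-/- AT2-BLM at 227, 186 and 206 FPKM. Tapbp alone among the 10 genes had AT2-BLM apart from and above each other group.

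Psmb8, the immunoproteasome subunit LMP7, had 72.2, 44.0 and 58.2 FPKM in AT2-PBS, 195, 159 and 125 FPKM in AT2-BLM, 268, 221 and 93.8 FPKM in Atg5-/- AT2-PBS and 172, 158 and 111 FPKM in Atg5-/- AT2-BLM. Psmb9 (LMP2) had 24.5, 14.996 and 15.6 FPKM in AT2-PBS, 63.4, 50.4 and 25.1 FPKM in AT2-BLM, 78.7, 91.4 and 26.5 FPKM in Atg5-/- AT2-PBS and 58.9, 65.4 and 33.7 FPKM in Atg5-/- AT2-BLM. Psmb10 (MECL-1) had 9.90, 8.82 and 8.83 FPKM in AT2-PBS, 14.7, 12.9 and 10.3 FPKM in AT2-BLM, 22.3, 22.5 and 12.1 FPKM in Atg5-/- AT2-PBS and 14.2, 19.0 and 12.5 FPKM in Atg5-/- AT2-BLM. The immunoproteasome subunits, unlike the heavy chains, were highest on average in Atg5-/- AT2-PBS, though that group overlapped with the next one below for each of them. Nlrc5 had 0.0738, 0.00590 and 0.0254 FPKM in AT2-PBS, 0.734, 0.519 and 0.369 FPKM in AT2-BLM, 0.970, 1.51 and 0.174 FPKM in Atg5-/- AT2-PBS and 1.02, 0.295 and 0.729 FPKM in Atg5-/- AT2-BLM. Its AT2-PBS libraries were below all others, at levels that few fragments would give. Replicate 3 of Atg5-/- AT2-PBS was the lowest of its group for each of the 10 genes.

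**Figure D1:**
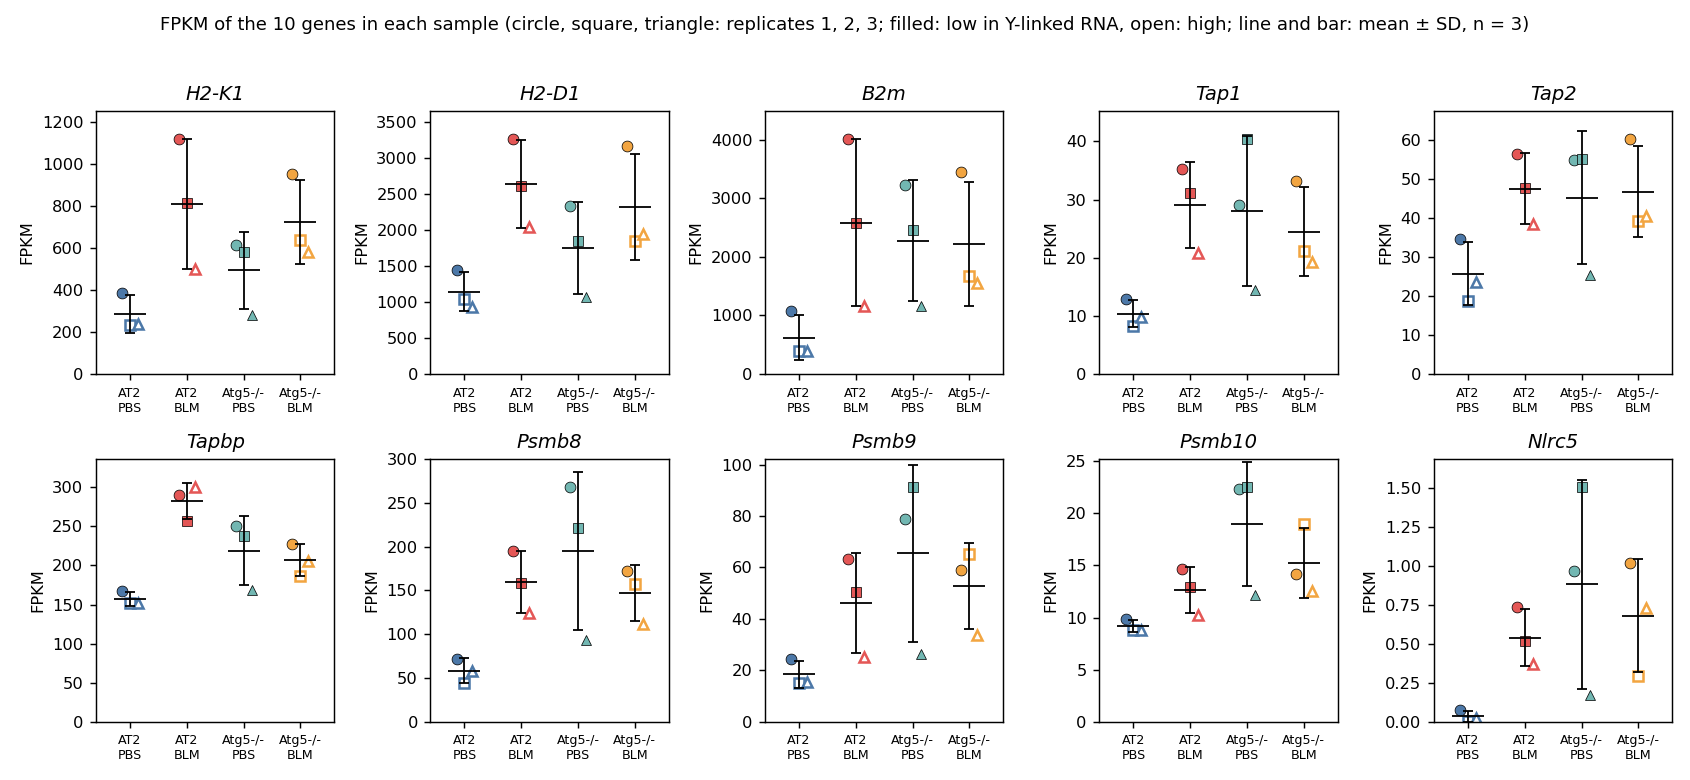
FPKM of the 10 genes in each of the 12 samples (vertical axis, from 0), by group (horizontal axis), with points for replicates, filled where the summed Y-linked RNA was under 1 FPKM, and the mean ± SD (n = 3). AT2-PBS is the lowest group for each gene, and filled points tend to lie above open ones of the same group.

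Within groups, libraries low in Y-linked RNA carried more class I RNA. The low library of AT2-PBS exceeded both high ones for 10 of 10 genes (39.9% of all tested genes did so). In AT2-BLM both low libraries exceeded the high one for 9 of 10 genes (24.9% of tested genes), Tapbp being the exception, and in Atg5-/- AT2-BLM the low library exceeded both high ones for 8 of 10 (35.6%), the exceptions being Psmb9 and Psmb10. In the limma fit with Y-linked RNA as a term, 5 of 9 genes were called lower in libraries high in Y-linked RNA, against 2.41% of all tested genes. B2m fell by 1.33 on the log2 scale (standard error 0.27, adjusted p = 0.137), H2-K1 by 0.77, H2-D1 and Tap1 by 0.60 and Tap2 by 0.56, and none of the 9 passed the Benjamini-Hochberg adjustment. Tapbp (-0.07), Psmb10 (-0.14), Psmb8 (-0.46) and Psmb9 (-0.70) were not called. This split of the libraries was made after their values were seen. The leukocyte sum was also higher in the low library of AT2-PBS (137 against 73.6 and 78.6). The same held for the low libraries of AT2-BLM (162 and 223 against 116). In Atg5-/- AT2-BLM it was lower in the low library (140 against 301 and 331). As Atg5-/- AT2-PBS holds no high library, the Y-linked term is estimated from the other groups alone.

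Whether BLM injury changed class I genes in AT2 cells with Atg5 was addressed by AT2-BLM against AT2-PBS. Changes were tested with limma on log2(FPKM + 1) over 10675 genes in 1 fit of 12 samples, a scale that understates changes of low genes. Calls needed a fold change of 1.4 or more together with p below 0.05 before adjustment. With BLM, 8 of the 9 tested genes rose, against 20.6% of all tested genes called higher and 7.77% called lower, and 6 of them also passed at an adjusted p of 0.05 (13.1% of all). All 9 had AT2-BLM apart from and above AT2-PBS (28.9% of all). The median log2 change of the 9 was 1.22, beside 0.17 over all tested genes.

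B2m rose most, with a log2 change of 2.05 (standard error 0.54, limma adjusted p = 0.0243). H2-K1 rose by 1.47 (standard error 0.36, adjusted p = 0.0179) and H2-D1 by 1.21 (standard error 0.32, adjusted p = 0.0238), both on the log2 scale. In the loading complex, Tap1 rose by 1.39 (adjusted p = 0.0171) and Tapbp by 0.84 (adjusted p = 0.00632), each with an adjusted p under 0.05, whereas Tap2, with 0.89 (adjusted p = 0.0656), was called by the unadjusted rule alone. The immunoproteasome subunits did not move alike in the calls. Psmb8 rose by 1.45 (adjusted p = 0.0163) and Psmb9 by 1.22 (adjusted p = 0.0822), but Psmb10 had a log2 change of 0.41 (standard error 0.24, 95% interval -0.11 to 0.92) and was not called. Nlrc5, in a fit without the filter over 17615 genes, had a log2 change of 0.57 (limma adjusted p = 0.199) and was called. An exact two-sided permutation test of its log2(FPKM + 1) gave p = 0.1, the smallest p that 3 against 3 samples allow. The fit of only these groups called 8 of 9 as well, and so did the fit with the Y-linked term (21.5% of all genes called higher), with B2m at 1.61, H2-K1 at 1.21 and Psmb8 at 1.29. Among the 7 libraries low in Y-linked RNA, Tap2 (0.57), Psmb8 (1.28) and Psmb9 (1.17) stayed positive but were no longer called. The same held for Psmb9 (0.68) among the 5 high libraries. These fits hold 1 AT2-PBS library and 1 AT2-BLM library respectively, assumed to vary like the other groups. 9 of the 10 leukocyte markers were also called higher with BLM, and their part in these changes was not tested. In bulk samples more cells of a type and more RNA per cell cannot be told apart.

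The share of all genes called higher depended on scaling (2202 higher and 829 lower as deposited, 1235 and 1398 after quantile normalization). Each of the 9 genes kept its positive sign under quantile, median-ratio and Cdh1 scaling (to E-cadherin, an epithelial transcript), and Tap2 and Psmb9 lost their call under each. Leaving out AT2-PBS replicate 2 (0.69) or replicate 1 of AT2-BLM (0.76) also ended the call of Tap2. For Psmb9 the libraries with this effect were AT2-PBS replicates 2 (1.10) and 3 (1.13) and, of AT2-BLM, replicates 1 (0.95) and 2 (1.11).

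**Figure D2:**
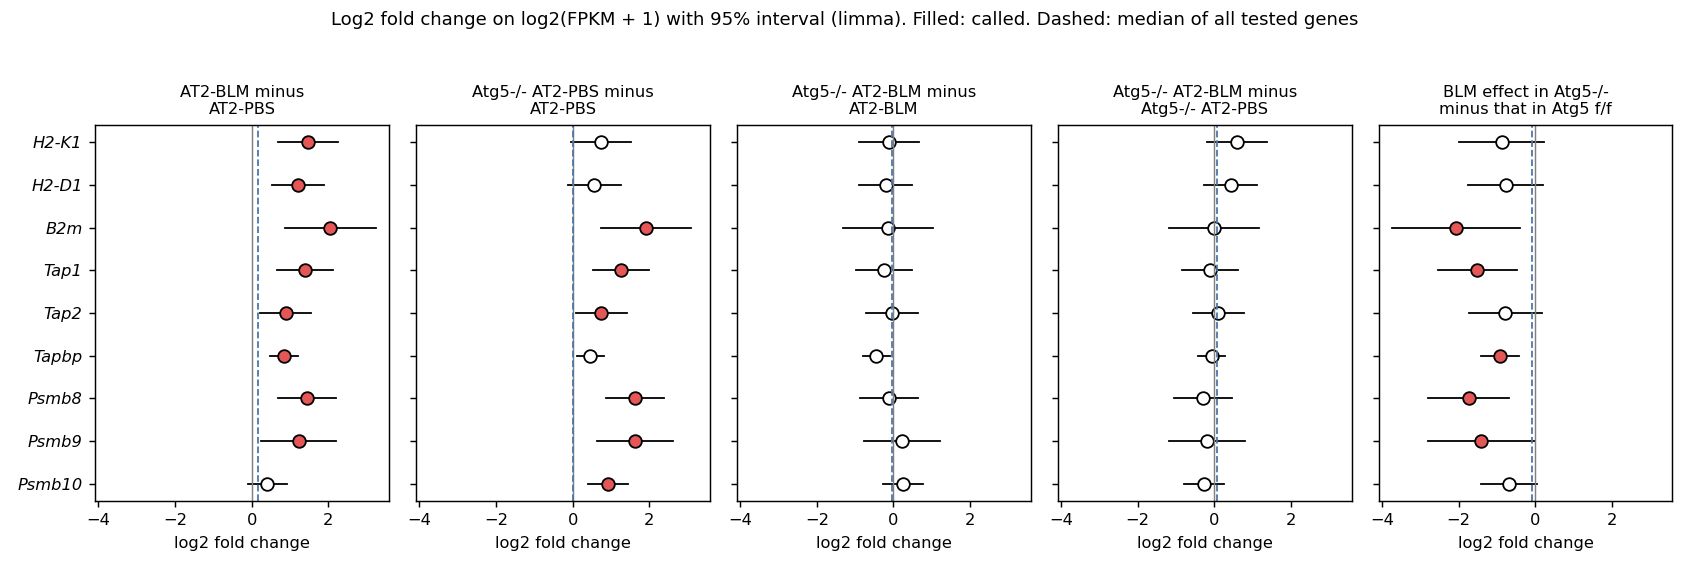
Log2 fold changes on the log2(FPKM + 1) scale (horizontal axis) of the 9 tested genes (vertical axis) with 95% intervals from limma, in 4 comparisons and their interaction. Filled points were called, and the dashed line is the median of all tested genes. 8 points are filled for BLM in Atg5 f/f mice, 6 for Atg5 loss with PBS, 5 for the interaction, and none for Atg5 loss with BLM or BLM in Atg5-/- mice.

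Loss of Atg5 without injury was examined by Atg5-/- AT2-PBS against AT2-PBS. 6 of 9 genes rose, against 14.1% of all tested genes called higher and 5.16% called lower, 5 of them with an adjusted p under 0.05 (9.9% of all). For 6 of 9 the ranges were apart with Atg5-/- AT2-PBS above (18.1% of all). The median log2 change of the 9 was 0.92, beside 0.019 over all tested genes. B2m rose by 1.92 (standard error 0.54, limma adjusted p = 0.039), Psmb9 by 1.63 (standard error 0.45, adjusted p = 0.0361) and Psmb8 by 1.62 (standard error 0.35, adjusted p = 0.00733) on the log2 scale. Tap1 rose by 1.26 (adjusted p = 0.0284) and Psmb10 by 0.92 (adjusted p = 0.0218). Tap2 was called at 0.75 without passing the adjustment (adjusted p = 0.166). The heavy chains were not called, with 0.75 for H2-K1 (95% interval -0.04 to 1.53) and 0.57 for H2-D1 (-0.12 to 1.26), nor was Tapbp (0.46, a fold change of 1.37). Nlrc5 was called in the fit without the filter, with a log2 change of 0.80 (adjusted p = 0.0862), and had an exact permutation p of 0.1.

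These groups also differ in other transcripts. 9 of 10 leukocyte markers were called higher in Atg5-/- AT2-PBS with a median log2 change of 4.397, and so were 11 of 11 macrophage, 5 of 5 fibroblast and 4 of 5 airway markers tested. Some of these, among them Ptprc, Itgam and Lum, passed the filter on low values only through Atg5-/- AT2-PBS. Itgam and Lum reached at most 0.69 and 0.25 FPKM in the other groups. These counts are therefore partly set by the filter. Within Atg5-/- AT2-PBS, Ptprc had 8.46, 7.54 and 8.01 FPKM in replicates 1 to 3, while B2m had 3219, 2457 and 1161 FPKM. The leukocyte sum was 1060, 1179 and 886. Airway markers summed to 49129, 85012 and 23408.5 FPKM in these replicates, against 4968 to 11774 FPKM in AT2-PBS. The part of any of these cell types in the class I values was not tested. With the Y-linked term, 5 of 9 genes were called (15.3% of all genes called higher), with Psmb8 at 1.32, Psmb9 at 1.16, B2m at 1.03, Tap1 at 0.86 and Psmb10 at 0.83, of which Psmb8 passed the adjustment. H2-K1 was then at 0.24 (95% interval -0.42 to 0.90) and H2-D1 at 0.17 (-0.46 to 0.80). Among the 7 libraries low in Y-linked RNA, AT2-PBS has 1 library whose spread is taken from the other groups. There Psmb8 was at 1.29 and Psmb10 at 0.83, and B2m, Tap1, Tap2 and Psmb9 were no longer called. Without replicate 3 of Atg5-/- AT2-PBS 9 of 9 genes were called. Tap2 lost its call without AT2-PBS replicate 2 (0.56) or 3 (0.71) or Atg5-/- AT2-PBS replicate 1 (0.57) or 2 (0.57). With Cdh1 scaling H2-K1, H2-D1 and Tapbp were called as well, and the split of all genes moved from 1507 higher and 551 lower to 2731 and 79, and to 1177 and 1587 after quantile normalization.

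**Figure D3:**
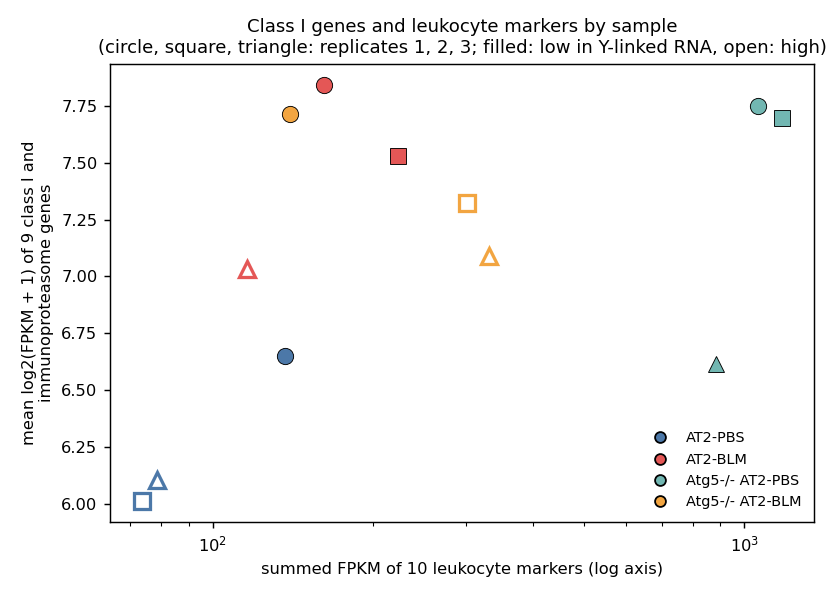
Mean log2(FPKM + 1) of the 9 tested genes (vertical axis) against the summed FPKM of 10 leukocyte markers (horizontal log axis) in each of the 12 samples, by group, filled where Y-linked RNA was low. The 3 Atg5-/- AT2-PBS samples lie at 886 to 1179 on the horizontal axis and at 6.62 to 7.75 on the vertical one, a span that reaches from near the highest AT2-PBS sample (6.65) to near the highest AT2-BLM sample (7.84).

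Atg5-/- AT2-BLM against AT2-BLM asked whether loss of Atg5 changed class I genes during injury. limma called 0 of 9 genes, where 2.04% of all tested genes were called higher and 3.12% lower, and 1 of 9 had an unadjusted p under 0.05. This was Tapbp, with a limma log2 change of -0.45 (standard error 0.16, adjusted p = 0.618), a fold change below the threshold. The ranges of Tapbp were apart with Atg5-/- AT2-BLM lower, as for 8.49% of all tested genes. When replicate 2 of AT2-BLM or replicate 1 of Atg5-/- AT2-BLM was left out, Tapbp was called lower (-0.52 each). The other log2 changes lay between -0.24 (Tap1) and 0.25 (Psmb10). The 95% interval was -1.33 to 1.03 for B2m and -0.91 to 0.66 for H2-K1, so that changes of 1.4-fold would not have been resolved for these genes. The comparison uses the same AT2-BLM samples as that of AT2-BLM with AT2-PBS.

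Atg5-/- AT2-BLM against Atg5-/- AT2-PBS gave the BLM change in cells without Atg5. limma called 0 of 9 genes, with 0 at an unadjusted p under 0.05, where 7.66% of all tested genes were called higher and 10.7% lower. H2-K1 had the most positive log2 change, 0.60 (95% interval -0.19 to 1.38), and Psmb8 the most negative, -0.29 (-1.04 to 0.46). B2m was at -0.01 (-1.19 to 1.17). With the Y-linked term H2-K1 (1.11), B2m (0.87) and H2-D1 (0.84) were called higher, 3 of 9 where 7.55% of all genes were, none with an adjusted p under 0.05. In the fit of the 7 low libraries H2-K1 was at 1.03 and H2-D1 at 0.93. That fit holds 1 Atg5-/- AT2-BLM library, the highest of its group for both genes, assumed to vary like the other groups. Without replicate 3 of Atg5-/- AT2-PBS 2 of 9 genes were called lower, Psmb8 (-0.75) and Psmb10 (-0.55). 9 of 10 leukocyte markers fell in this comparison, with a median of -2.19. Ptprc, 1 of the 10, passed the filter only through Atg5-/- AT2-PBS.

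The BLM change in Atg5-/- cells was lower than that in Atg5 f/f cells for 5 of 9 genes by the interaction, where 15.2% of all tested genes were called lower and 5.02% higher. The difference was -2.07 for B2m (standard error 0.77, limma adjusted p = 0.139), -1.74 for Psmb8 (0.49, adjusted p = 0.0496), -1.51 for Tap1 (0.48, adjusted p = 0.0802), -1.41 for Psmb9 (0.64, adjusted p = 0.241) and -0.91 for Tapbp (0.23, adjusted p = 0.0317) on the log2 scale. Psmb8 and Tapbp were called lower with an adjusted p under 0.05, as were 7.11% of all tested genes. H2-K1 (-0.87), Tap2 (-0.78), H2-D1 (-0.77) and Psmb10 (-0.68) were negative and not called. The interaction depended on single libraries. It called 9 of 9 genes without Atg5-/- AT2-PBS replicate 3 and 3 of 9 without Atg5-/- AT2-PBS replicate 1 or AT2-BLM replicate 1, where B2m and Psmb9 were lost. Psmb9 was also lost without any one of AT2-PBS replicates 2 and 3, Atg5-/- AT2-PBS replicate 2, AT2-BLM replicate 2 and Atg5-/- AT2-BLM replicates 1 and 3. With the Y-linked term 2 of 9 were called, Psmb8 (-1.28) and Tapbp (-0.84), neither with an adjusted p under 0.05 and with 17% of all genes called lower, and B2m was at -0.74. Among the 7 libraries low in Y-linked RNA 0 of 9 were called, with 1 library each for AT2-PBS and Atg5-/- AT2-BLM.

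Each immunoproteasome subunit takes the place of a constitutive one in the assembled particle, so their FPKM were also set against each other. In Psmb8/Psmb5 the AT2-PBS ratios of FPKM were 0.447, 0.303 and 0.636 and those of AT2-BLM 0.680, 0.558 and 0.310. Atg5-/- AT2-PBS gave 1.798, 1.43 and 0.717 and Atg5-/- AT2-BLM 0.968, 0.620 and 0.557. The ratio thus passed 1 in replicates 1 and 2 of Atg5-/- AT2-PBS alone. Psmb5 itself rose with BLM in Atg5 f/f cells by 1.30 on the log2 scale (standard error 0.22, limma adjusted p = 0.00361), beside 1.45 for Psmb8, and Psmb7 rose by 0.59 (adjusted p = 0.0278). Psmb6 was at 0.47 and not called.

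For the tests, 1 was added to each FPKM before the log2 ratio was taken. With Atg5 loss in PBS, the log2 ratio was higher for each pair with ranges apart. The difference was 1.46 for Psmb8/Psmb5 (standard error 0.50), 1.62 for Psmb9/Psmb6 (0.52) and 0.77 for Psmb10/Psmb7 (0.25). An exact two-sided permutation test gave p = 0.1 for each, the smallest possible with 3 samples a group, and 0.4 after adjustment over the 12 tests. Psmb5, Psmb6 and Psmb7 differed by 0.01 to 0.16 in that comparison and were not called. With BLM in Atg5 f/f cells the differences were 0.14, 0.75 and -0.18, with overlapping ranges and exact p-values of 0.7, 0.3 and 0.6. In the 6 remaining tests of ratios the ranges overlapped. Among the 7 libraries low in Y-linked RNA, which hold 1 AT2-PBS library, the differences with Atg5 loss in PBS were 1.45, 1.24 and 0.66.

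**Figure D4:**
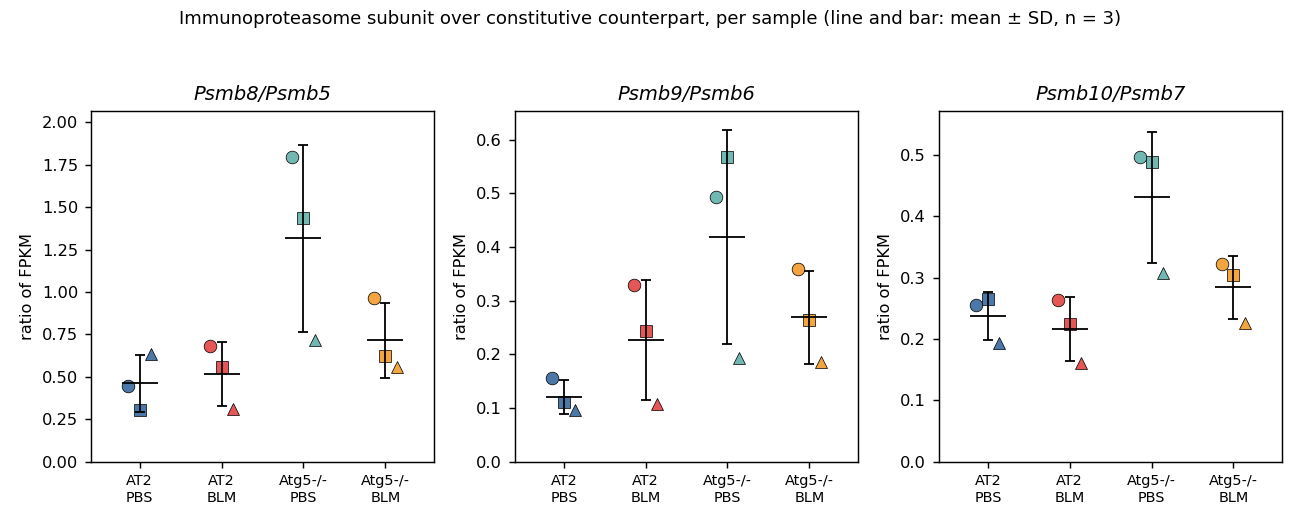
Ratio of FPKM of each immunoproteasome subunit to its constitutive counterpart (vertical axis, from 0) in each sample, by group (horizontal axis), with the mean ± SD (n = 3). Atg5-/- AT2-PBS lies above AT2-PBS for each pair, and AT2-BLM overlaps with AT2-PBS.

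Of 23 other class I and class I-like genes listed, 15 were in the table and 11 tested. 5 of 11 rose with BLM in Atg5 f/f cells and 8 of 11 with Atg5 loss in PBS, 0 were called with Atg5 loss during BLM (limma, 0 also at an unadjusted p under 0.05), 2 fell with BLM in Atg5-/- cells, and 4 were lower in the interaction. The shares of all tested genes called in these directions were 20.6% and 14.1% higher, and 10.7% and 15.2% lower. Their median log2 change was 0.89 with BLM in Atg5 f/f cells and 1.39 with Atg5 loss in PBS. H2-Q7 and H2-Q6, Qa-2 heavy chains, rose with BLM by 2.81 (adjusted p = 0.024) and 2.58 (adjusted p = 0.0409), with overlapping ranges, as AT2-PBS replicate 1 stood at 14.96 and 29.6 FPKM against at most 3.38 and 4.07 FPKM in replicates 2 and 3. These neighbours share 18.5% of the 50-base windows of H2-Q7, and their separate values are uncertain. H2-Q10, a heavy chain known from liver, was measured at 32.9, 57.3 and 38.6 FPKM in Atg5-/- AT2-PBS against 15.02, 0.267 and 0.846 FPKM in AT2-PBS, and rose by 3.68 (adjusted p = 0.00921). The liver transcripts Alb and Apoa1 had 150 to 335 and 284 to 520 FPKM in Atg5-/- AT2-PBS. In AT2-PBS they too were high in replicate 1, at 67.6 and 103 FPKM, against at most 1.60 and 0.496 FPKM in replicates 2 and 3, and the part of such RNA in the H2-Q10 values was not tested. Cd1d1, which presents lipids to NKT cells, had 1.45, 5.97 and 4.58 FPKM in Atg5-/- AT2-PBS, against at most 0.171 FPKM in AT2-PBS. It rose by 2.05, and 26.6% of its windows occur in Cd1d2. Cd1d1 passed the filter on low values only through Atg5-/- AT2-PBS, as it reached at most 1.02 FPKM in the other groups. No p-value is given for it, and it is among the genes counted as called above.

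Of 13 peptide loading and trimming genes, with medians of 0.09 with BLM in Atg5 f/f cells and -0.08 with Atg5 loss in PBS, 2 rose and 1 fell with BLM in Atg5 f/f cells, 3 fell with Atg5 loss in PBS, and 0 were called in the other comparisons (limma, 0 at an unadjusted p under 0.05). With BLM the counts were no higher than those of all tested genes, of which 20.6% were called higher and 7.77% lower, and 5.16% were called lower with Atg5 loss in PBS. Tpp2, a cytosolic peptidase, rose by 0.57 and Tapbpl, a tapasin relative that edits peptides, by 0.56 with BLM. Calr, the chaperone calreticulin, fell by 0.56 with BLM and by 0.58 with Atg5 loss in PBS, and Sec61a1, of the translocon, fell by 0.52 with Atg5 loss in PBS, none of these with an adjusted p under 0.05. Hspa5, the chaperone BiP, fell by 0.49 with Atg5 loss in PBS (adjusted p = 0.0475), the only gene of the list to pass the adjustment in any of the 5 comparisons. Of 10 proteasome activator and assembly genes, 4 rose with BLM in Atg5 f/f cells and 2 with Atg5 loss in PBS, and 2 were lower in the interaction. Of all tested genes 20.6%, 14.1% and 15.2% were called in these directions, so that the 2 of 10 in each of the last comparisons were near the background. The median log2 change of the list was 0.46 with BLM and 0.28 with Atg5 loss in PBS. Psme2, a subunit of the PA28 activator that works with the immunoproteasome, rose by 0.83 with BLM (adjusted p = 0.0362) and by 0.80 with Atg5 loss in PBS (adjusted p = 0.0571). Psme3, the nuclear PA28 gamma, rose by 0.67 (adjusted p = 0.034) and Psmg1, an assembly chaperone, by 0.58 (adjusted p = 0.0388) with BLM. Psmg4, another assembly chaperone, rose by 0.71 with Atg5 loss in PBS and was lower by -0.80 in the interaction.

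Of 23 genes of interferon-gamma signalling and class I transcription, 20 were tested. With BLM in Atg5 f/f cells 5 rose and 2 fell, with Atg5 loss in PBS 6 rose and 2 fell, with Atg5 loss during BLM 2 fell, with BLM in Atg5-/- cells 2 rose and 5 fell, and in the interaction 3 were higher and 7 lower. Over all tested genes, 20.6% were called higher and 7.77% lower with BLM in Atg5 f/f cells. The 5 and 2 of 20 were near this background. With Atg5 loss in PBS the shares were 14.1% and 5.16%, and 3.12% were called lower with Atg5 loss during BLM. With BLM in Atg5-/- cells 7.66% were called higher and 10.7% lower, so that 2 of 20 rising was near the background. In the interaction 5.02% were called higher and 15.2% lower. The median log2 change of the list was 0.14 with BLM in Atg5 f/f cells and 0.13 with Atg5 loss in PBS. Irf9, an interferon regulatory factor, rose by 1.37 with BLM in Atg5 f/f cells (limma adjusted p = 0.0455) and by 1.46 with Atg5 loss in PBS (adjusted p = 0.0464). Relb, an NF-kappa-B subunit, rose by 1.31 (adjusted p = 0.00361) and 1.08 (adjusted p = 0.00629) in the same order, and fell with Atg5 loss during BLM by 0.77 (adjusted p = 0.607). Irf8, a factor known from myeloid cells, had 14.4, 10.6 and 11.3 FPKM in Atg5-/- AT2-PBS, against at most 2.76 FPKM in any other library, with a rise of 3.27 (adjusted p = 4.65e-05).

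Of 7 ligands of receptors on lymphocytes and phagocytes, 4 of which (Raet1d, Raet1e, H60b and Ulbp1) bind the activating receptor NKG2D, 3 were tested, Cd274, Cd47 and Raet1e. Cd274, which encodes PD-L1, had 4.67, 3.89 and 2.66 FPKM in Atg5-/- AT2-PBS, against at most 0.96 FPKM in any other library. Its log2 change was 1.96 with Atg5 loss in PBS and 0.47 with BLM in Atg5 f/f cells, the latter not called. With BLM in Atg5-/- cells it fell by 1.68. Cd274 reached 1 FPKM in Atg5-/- AT2-PBS alone. It was thus tested only because that group was high, and no p-value is given for it. Cd47, a signal against phagocytosis, fell by 0.54 with BLM in Atg5-/- cells (adjusted p = 0.0308). With BLM in Atg5 f/f cells it was also lower, by 0.42 (limma adjusted p = 0.0541), under the threshold of 1.4-fold and not called.

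Over the 12 samples, the genes whose log2(FPKM + 1) ran most like the mean of the 9 were H2-Q1 (Pearson r = 0.966), Bst2 (0.954), Lgals3bp (0.951), H2-T22 (0.9504) and Ddx58 (0.9501). The samples share groups and library properties, and the values are descriptions. Bst2, the interferon-induced tetherin, averaged 42.4 FPKM (SD 10.4, n = 3) in AT2-PBS, 229 (SD 110) in AT2-BLM, 425 (SD 333) in Atg5-/- AT2-PBS and 198 (SD 93.9) in Atg5-/- AT2-BLM. Among the 9 genes themselves, each one's correlation with the mean of the other 8 lay between 0.774 for Psmb10 and 0.972 for Tap1.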

How the data were processed

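RNA of sorted AT2 cells was measured in 12 samples, grouped by their titles. Per the methods, the authors removed low-quality reads with Trimmomatic, used STAR for alignment to mm9 and Cufflinks for the deposited FPKM. The submitters' processing notes list HISAT2 2.2.1.0 instead, with Trimmomatic 0.36, Cufflinks 2.2.1 and HTSeq 0.9.1. The methods name a normalization with DESeq, and whether the FPKM include it is not given in the sources used here. No strand setting for counting is given either, so Tap1 and Psmb9 could share reads where they overlap. The description of AT2-PBS replicate 3 carries a different number from its title, which was followed.

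Genes reaching 1 FPKM in 3 or more samples entered a limma 3.58.1 fit (R 4.3.3, eBayes with a mean-variance trend) of log2(FPKM + 1). p-values were adjusted over all tested genes by Benjamini-Hochberg. Steps of low FPKM put relative depths between 0.930 and 1.15, and absolute depth is unknown, so counting error has no interval here. The genes and lists were chosen with earlier results of these data known. All 10 genes were named, with Psmb5, Psmb6 and Psmb7, the 4 genes of largest change among those called in each other list, and the 5 genes most like the mean of the 9 by Pearson r. 1 gene that this rule names is not reported here. Y-linked genes, Hspa5, Alb, Apoa1 and the single marker genes named were chosen after their values were seen. The fit was tested on simulated data. Plots were made in Python 3.11.15 (matplotlib 3.10.9).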

Additional observations from a re-analysis of the deposited data

Results flagged for a closer look

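The BLM change differed between Atg5-/- and Atg5 f/f cells, by the interaction term, for B2m (-2.07), Psmb8 (-1.74), Tap1 (-1.51), Psmb9 (-1.41) and Tapbp (-0.91) on the log2 scale. With the Y-linked term the values were -0.74, -1.28, -0.91, -0.70 and -0.84 in the same order, of which Psmb8 and Tapbp were called. The groups hold 3 samples each, too few to test for a sample far from the others.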

How the results depend on the processing

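For the 9 tested genes, no alternative run turned the sign of a change with BLM in Atg5 f/f, with Atg5 loss in PBS or in the interaction. The numbers called in the order BLM in Atg5 f/f, Atg5 loss with BLM, Atg5 loss with PBS, BLM in Atg5-/- and interaction (8, 0, 6, 0 and 5) changed by over 1.5 times for the interaction by adjusted p (2 called) and with a replicate block (9 called, and 1, H2-K1, for BLM in Atg5-/-). Replicate numbers come from the titles. Over all tested genes, same-numbered samples of different groups correlated between -0.30 and 0.23 in their deviations from group means. 4 of 18 pairs were over 0.1, and the highest correlation, 0.26, was between samples of different numbers. These correlations show no general pairing by number and cannot exclude one for single genes. For H2-K1, H2-D1, B2m and Psmb8, replicate 1 was the highest library of each group. Replicate 1 was also low in Y-linked RNA in each group. Leaving out single samples gave 0 to 1 for Atg5 loss with BLM, 0 to 2 for BLM in Atg5-/- and 3 to 9 for the interaction. Chosen after seeing the data, the Y-linked term gave 3 for BLM in Atg5-/- and 2 for the interaction. The fits of the 7 libraries low in Y-linked RNA and of the 5 high ones hold groups of 1 library, so their counts are left out here.

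Signs turned for uncalled changes. With Atg5 loss during BLM, Cdh1 scaling gave H2-K1 0.0488, B2m 0.0260, Tap2 0.13 and Psmb8 0.0539, quantile normalization Tap2 0.0891 and Psmb8 0.0137, and median-ratio scaling Tap2 0.0311. The Y-linked term gave H2-K1 0.13, B2m 0.30, Tap2 0.15 and Psmb8 0.0344, the 5 high libraries 0.28, 0.46, 0.0554 and 0.0895, and the 7 low libraries H2-D1 0.12, B2m 0.0993, Tap1 0.0028 and Tap2 0.21. Leaving out single samples gave H2-K1 -0.43 to 0.15, B2m -0.63 to 0.26, Tap2 -0.23 to 0.0974, Psmb8 -0.28 to 0.0683 and Psmb9 -0.15 to 0.51. With BLM in Atg5-/- cells, Cdh1 scaling gave H2-D1 -0.0284 and Tap2 -0.35, the Y-linked term B2m 0.87, Tap1 0.29, Psmb8 0.0113 and Psmb9 0.28, and the 7 low libraries B2m 0.72, Tap1 0.35, Tapbp 0.0740 and Psmb9 0.0293. Leaving out single samples gave B2m -0.44 to 0.30, Tap1 -0.51 to 0.20, Tap2 -0.26 to 0.28, Tapbp -0.24 to 0.0386, Psmb8 -0.75 to 0.0038 and Psmb9 -0.73 to 0.14. For log2 ratios it gave Psmb8/Psmb5 -0.13 to 0.47 and Psmb10/Psmb7 -0.32 to 0.0078 with BLM in Atg5 f/f, and Psmb9/Psmb6 -0.12 to 0.67 with Atg5 loss during BLM, and Psmb8/Psmb5 was -0.51 with BLM in the 5 high libraries. The interaction split of all genes, 536 higher and 1620 lower, was 1362 and 1123 after quantile normalization. The cause of these changes was not tested.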

Other observations

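The summed FPKM of 10 endothelial markers ran from 17.5 to 44.4 in AT2-PBS, 353 to 812 in AT2-BLM, 419 to 784 in Atg5-/- AT2-PBS and 99.2 to 1019 in Atg5-/- AT2-BLM, but most of it outside AT2-PBS was Ly6a, which encodes Sca-1, a marker that the gate selects against. Ly6a had 7.36 to 16.8, 325 to 777, 368 to 754 and 63.1 to 984 FPKM in the same order. The other 9 markers summed to 10.1 to 27.6, 28.0 to 35.0, 19.4 to 50.5 and 34.7 to 36.1. Of the 6 markers tested, 4 were called higher with BLM in Atg5 f/f cells, against 20.6% of all tested genes. T and NK cell markers summed to at most 1.96 in AT2-PBS and to between 41.0 and 82.9 in Atg5-/- AT2-PBS, and B cell markers to 16.1 to 20.1 and 21.5 to 76.5. Most of the B cell sum in AT2-PBS was Cd79b, at 15.5 to 19.4 FPKM. 1 of the 10 T and NK cell markers was listed at 0 in all 3 AT2-PBS libraries. Of 11 tested AT2 markers 4 fell and 1 rose with BLM in Atg5 f/f cells, and likewise 4 fell and 1 rose with Atg5 loss in PBS. Over all tested genes 7.77% were called lower and 20.6% higher with BLM, and 5.16% and 14.1% with Atg5 loss in PBS. The 1 of 11 that rose was thus not above the background.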
